A study of Mus musculus with 2 samples.

Results

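The platelet-derived growth factor (PDGF) family of the mouse was followed through the cells of injured carotid arteries: the 4 ligand genes Pdgfa, Pdgfb, Pdgfc and Pdgfd and the 2 receptor genes Pdgfra and Pdgfrb. All 6 were found by symbol among the 32285 genes of the count tables. PDGF chains pair into dimers that bridge receptor tyrosine kinases. The A and C chains act mainly through the alpha receptor (Pdgfra), and the D chain mainly through the beta receptor (Pdgfrb). The B chain acts through both. The C and D chains are secreted with a domain that proteases have to cleave off before they bind. In arteries the family is best known for endothelial PDGF-B, which draws and holds pericytes and smooth muscle cells through the beta receptor, and for the growth and movement of smooth muscle after vessel injury, while the alpha receptor is a usual mark of connective tissue fibroblasts.

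Cells were taken from mouse carotid arteries 18 h after a temporary ligation and profiled by droplet single-cell RNA-seq, which counts 3′ tags with a unique molecular identifier (UMI). The control library came from CDH5 Cre-, Cx43fl/fl mice and the other, labelled EC-Cx43-KO, from CDH5 Cre+, Cx43fl/fl mice, so that both carried the floxed connexin 43 (Gja1) alleles and only the second had Cre, under the Cdh5 promoter of endothelium; the series describes the deletion as inducible and endothelial. Vessels were opened lengthwise and digested briefly, which favours endothelium, and arteries of up to 5 animals of 1 condition were pooled into a single library. Age and sex are not in the labels. With 1 library per condition nothing could be tested across animals: every interval below covers counting error only, and every difference between the conditions is a difference between these 2 libraries.

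The control library held 7298 barcodes with a median of 4483 UMIs, and the labelled knockout library 8315 with a median of 4590, of which 6376 and 7236 cells were kept. Classes were built from clusters made without the 6 PDGF genes and Gja1 and were named from marker genes: endothelial (EC)-like cells (480 in the control library and 580 in the other), SMC-like cells for smooth muscle (413 and 541), fibroblast-like cells (1397 and 1585), macrophage-like cells, which include monocytes (2465 and 2568), and neutrophil-like, dendritic-like, T/NK-like and B-like. No cluster could be named pericyte-like. Gja1 was not lower in the EC-like cells of the library labelled EC-Cx43-KO: 22.3 control counts per 1e+06 UMIs of the class (CPM) and 35.7 in the other library, a log2 ratio of 0.68 (0.29 to 1.07). Without a small group led by Fabp4 and Cd36 the ratio was -0.03 (-0.55 to 0.48), and within that group, from 24 and 87 UMIs, -0.97 (-1.63 to -0.25). The labels do not say which part of the gene was removed, so these 3′ counts do not check the genotype label, and the library is called by its label throughout. The pools also differed in sex-linked transcripts, with Xist and no Y-linked UMI in 3118 of 6376 control and 2748 of 7236 labelled knockout cells. The libraries had 17 barcodes in common.

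In the mm10 (GRCm38) annotation the genes lie apart, except that Pdgfa (ENSMUSG00000025856, chr5:138976014-138997370, minus strand) and Pdgfra (ENSMUSG00000029231, chr5:75152292-75198215, plus strand) share a chromosome. Pdgfb (ENSMUSG00000000489, minus strand) covers chr15:79995874-80014977. Pdgfc (ENSMUSG00000028019, chr3:81036416-81214040) and Pdgfd (ENSMUSG00000032006, chr9:6168584-6378850), both on the plus strand, are the longest of the 6, at 178 and 210.3 kb. All 6 are protein coding, and the counts are not scaled to gene length, so levels are compared between cells and not between genes.

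Pdgfa, Pdgfc and Pdgfd shared their leading class, the SMC-like cells, and the sequences just before their starts are shown to set the 3 side by side. Each line gives the 250 bases before a RefSeq transcript start (GRCm38.p6), 5′ to 3′ on the gene's strand, with a motif in capitals where one was found.
Pdgfa, chr5:138994945-138995194, minus strand: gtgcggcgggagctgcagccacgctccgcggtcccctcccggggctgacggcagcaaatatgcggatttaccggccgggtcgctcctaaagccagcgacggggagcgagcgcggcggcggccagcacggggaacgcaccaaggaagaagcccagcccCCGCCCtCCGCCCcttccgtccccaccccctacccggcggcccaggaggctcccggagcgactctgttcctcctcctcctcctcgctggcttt
Pdgfc, chr3:81036166-81036415, plus strand: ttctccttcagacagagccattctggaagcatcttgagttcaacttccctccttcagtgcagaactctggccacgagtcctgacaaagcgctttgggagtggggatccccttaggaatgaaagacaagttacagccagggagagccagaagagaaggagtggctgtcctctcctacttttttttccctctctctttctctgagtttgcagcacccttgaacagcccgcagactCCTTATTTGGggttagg
Pdgfd, chr9:6168236-6168485, plus strand: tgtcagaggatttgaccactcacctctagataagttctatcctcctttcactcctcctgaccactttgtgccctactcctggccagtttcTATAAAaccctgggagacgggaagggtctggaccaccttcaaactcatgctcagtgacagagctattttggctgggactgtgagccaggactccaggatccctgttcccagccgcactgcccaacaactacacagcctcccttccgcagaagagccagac
The capitals mark 2 GC boxes (GGGCGG, here as its reverse complement CCGCCC) in Pdgfa, a CArG box in Pdgfc and a TATAAA in Pdgfd. In all, 6 motifs were searched on both strands, in windows that also held 50 bases after the start. They were the GC box, the Egr-type GCGNGGGCG, which can overlap a GC box, the TATA motif named above, the motif CCAAT, the AP-1 site TGANTCA and the CArG box, which serum response factor binds. The CArG box of Pdgfc began 17 bases before the start and is present in 1.63% of 32851 such windows of the mouse genome. The GC box is present in 35.7% of windows, TATAAA in 13.6%, CCAAT in 37.4%, TGANTCA in 7.81% and the Egr-type motif in 5.55%. The 3 windows shared no motif of the 6, and their G and C content was 73.3% for Pdgfa, 55.0% for Pdgfc and 56.7% for Pdgfd, beside a median of 52.7%. Pdgfa also had a second RefSeq start, not printed here, whose window (chr5:138994232-138994531) had 67% and 1 GC box. In the window of Pdgfra, led by fibroblast-like cells, none of the 6 was matched. A match is a run of letters and not a shown binding site.

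Each gene of the family had its own distribution over the cells. Pdgfb, Pdgfa, Pdgfd and Pdgfra were at least 4-fold higher, in both libraries, in a single class than in all other named cells: Pdgfb in EC-like cells, where 5.71% of the 17661 genes measured did so, Pdgfa and Pdgfd in SMC-like cells (5.52% of genes), and Pdgfra in fibroblast-like cells (6.6% of genes). Pdgfc and Pdgfrb reached 4-fold in both libraries in no class. The plot of levels by class shows these patterns for both libraries.

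**Figure D1:**
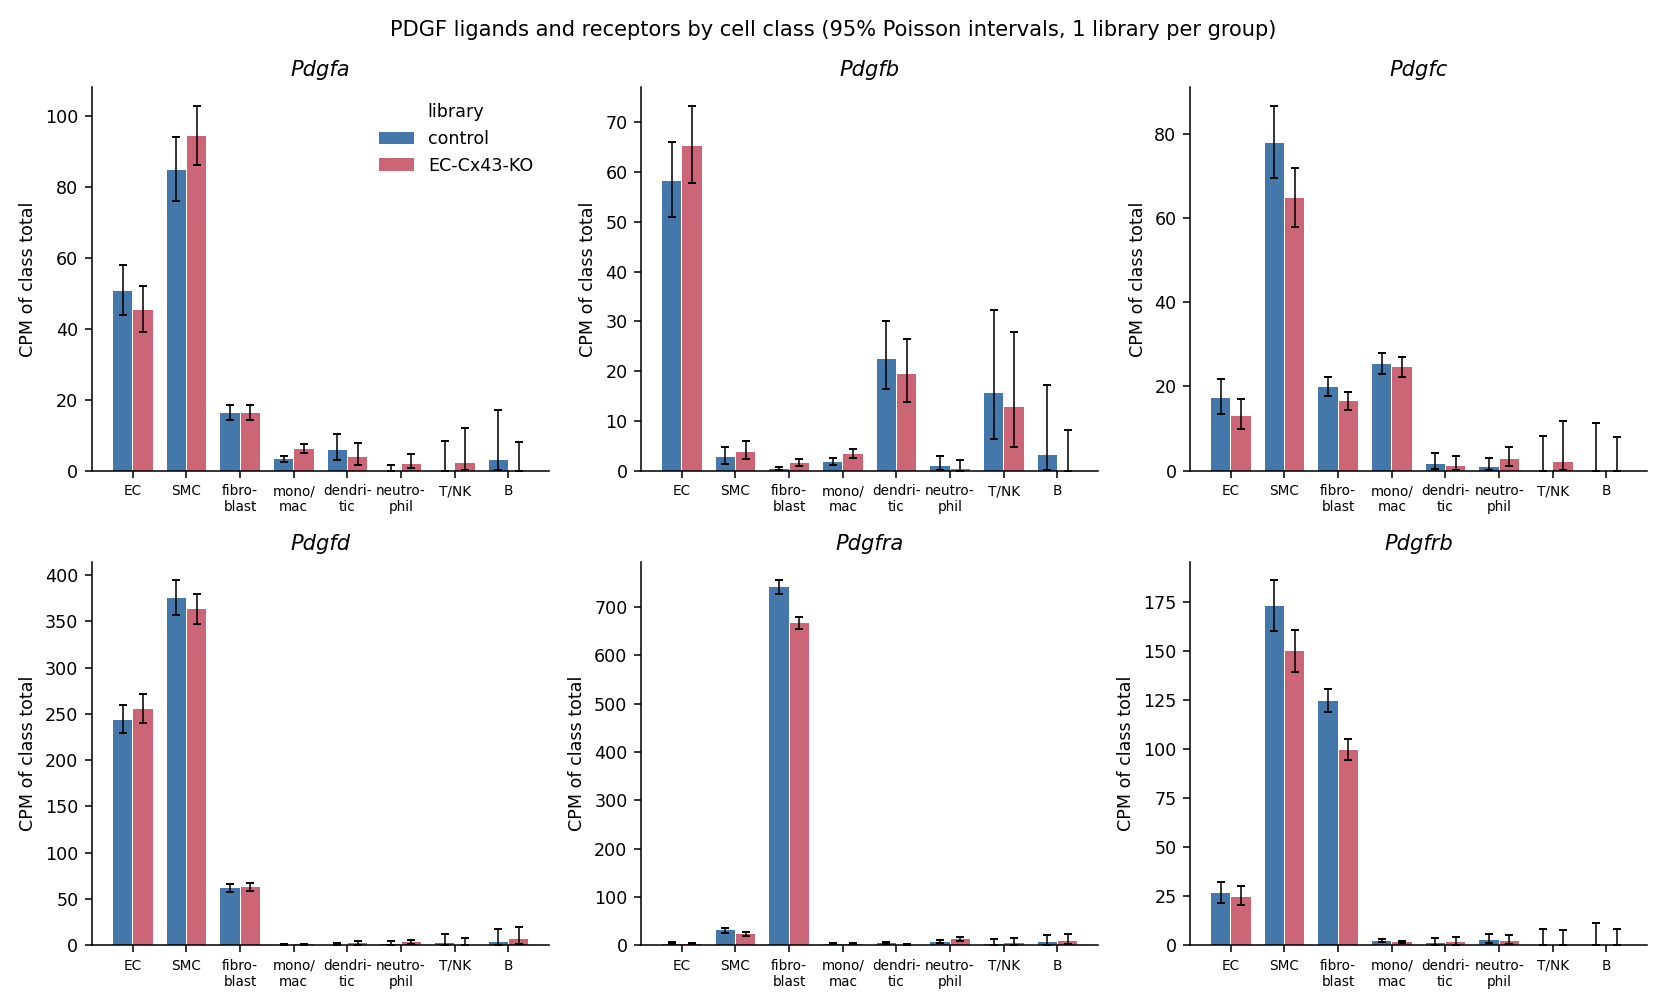
Level of each PDGF gene in each cell class, in CPM of the class total, with 1 bar per library and exact 95% Poisson intervals for counting error. The highest bars are SMC-like for Pdgfa, Pdgfc, Pdgfd and Pdgfrb, EC-like for Pdgfb and fibroblast-like for Pdgfra.

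Pdgfb, the ligand that recruits mural cells, was counted in EC-like cells at 58.1 CPM in the control library (interval 51.0 to 66.0) and 65.2 CPM in the labelled knockout library (57.7 to 73.4). These cells held 69.9% (64.7 to 74.7) of the control library's 339 Pdgfb UMIs and 64.9% (60.2 to 69.5) of the other's 425. The level was 22.9-fold and 19.0-fold that of all other named cells. Dendritic-like cells came next, at 22.5 and 19.4 CPM, below EC-like cells by more than counting error. These were 38.7% and 29.7% of the EC-like level. Of the 10 EC markers 9 and 7 were detected there, with summed levels of 88.0 and 87.4 CPM against 7061 and 7017 CPM in EC-like cells; Pecam1 stood at 1.52% and 1.92% and Cdh5 (VE-cadherin) at 0.13% and 0.25% of the EC-like level. The part of endothelial RNA was not tested. Monocyte/macrophage markers in dendritic-like cells summed to 6671 and 6452 CPM, against 8034 and 9567 CPM in macrophage-like cells. Dendritic markers summed to 737 and 716 CPM, against 57.9 and 70.0 CPM in macrophage-like cells. The dendritic-like class thus also carried a monocyte/macrophage profile. T/NK-like cells had 15.6 and 12.8 CPM from 7 and 6 UMIs and could not be told from dendritic-like cells. In SMC-like cells, the targets of this ligand, Pdgfb was at 2.68 and 3.84 CPM.

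Pdgfa, a ligand of the alpha receptor, was counted at 84.6 CPM (75.9 to 93.9) in SMC-like cells of the control library and 94.1 CPM (86.0 to 103) in those of the labelled knockout library. EC-like cells followed at 50.5 and 45.1 CPM and fibroblast-like cells at 16.3 CPM in both libraries. Each of these steps was larger than counting error in the control library. SMC-like cells held 40.6% (37.3 to 44.0) and 45.2% (42.2 to 48.2) of the Pdgfa UMIs, 6.51-fold and 6.62-fold the level of all others. Macrophage-like cells had 3.23 and 6.08 CPM.

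Pdgfc, which is secreted in a latent form and acts through the alpha receptor, was the most widely spread ligand. SMC-like cells had the highest level, 77.7 CPM (69.4 to 86.8) in control cells and 64.7 CPM (58.0 to 72.0) in labelled knockout cells, 4.04-fold and 3.70-fold that of all others. Monocyte/macrophage-like cells, at 25.3 and 24.6 CPM, held more Pdgfc UMIs than SMC-like cells did, 36.6% (33.7 to 39.5) against 29.8% (27.0 to 32.6) in the control library, since they were the larger class. Fibroblast-like cells (19.9 and 16.5 CPM) and EC-like cells (17.2 and 13.0 CPM) were not separated by counting error in the control library. The other 5 genes were at or under 6.08 CPM in macrophage-like cells of either library.

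Pdgfd, the beta receptor's latent ligand, gave the most UMIs of the 4, 3430 in the control library and 3922 in the other. SMC-like cells had 375 CPM (357 to 395) and 363 CPM (347 to 380), EC-like cells 244 and 256 CPM, and fibroblast-like cells 61.6 and 62.5 CPM. These 3 classes were apart from each other by more than counting error in the control library, and the other 5 classes of at least 50 cells were at or under 6.58 CPM. Thinned to 1000 UMIs per cell, 31.3% (26.7 to 36.1) of SMC-like and 19.2% (15.6 to 23.3) of EC-like control cells had a Pdgfd UMI, against 0.13% (0.03 to 0.37) of macrophage-like cells. The unthinned shares, at medians of 8693 UMIs in SMC-like and 5463 in macrophage-like cells, were 77.2% and 0.41%.

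Pdgfra, the alpha receptor, was nearly confined to fibroblast-like cells in both libraries. They had 741 CPM (727 to 756) in the control library and 667 CPM (654 to 680) in the labelled knockout library, and held 98.0% and 97.6% of the Pdgfra UMIs. SMC-like cells had 30.7 and 22.3 CPM, EC-like cells 3.43 and 3.07 CPM, and macrophage-like cells 3.10 and 3.45 CPM. Marker genes of other classes gave a median free RNA estimate for Pdgfra of 11.8 CPM in control classes and 8.45 in the other library. The whole EC-like and macrophage-like values lie below these medians, so the estimate is too high for those classes. Those values are low and were not told apart from free RNA. The SMC-like values exceed these medians; with the highest of 17 marker estimates the free RNA level would be 24.7 and 18.8 CPM. Pdgfra in SMC-like cells was 4.14% of its fibroblast-like level in the control library. On that scale the fibroblast markers Dcn, Dpt, Lum and Col1a1 stood at 2.32%, 5.65%, 24.4% and 47.6%. The part of fibroblast RNA in the SMC-like Pdgfra value was not tested.

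Pdgfrb, the beta receptor (ENSMUSG00000024620, chr18:61045150-61085061, plus strand), was highest in SMC-like cells. They had 173 CPM (160 to 186) in the control library, against 150 CPM (139 to 161) under the knockout label. Fibroblast-like cells followed at 124 CPM (119 to 130) and 99.7 CPM (94.6 to 105), and being more numerous they held 67.3% (65.5 to 69.1) and 61.1% (59.1 to 63.1) of Pdgfrb UMIs. Both receptors were counted together in fibroblast-like cells: of 1077 control cells thinned to 2000 UMIs, 163 had UMIs of both, where the product of their separate shares gives 153. In the other library both were seen in 157 of 1245 cells, with 149 from the product. At 1000 UMIs per cell the counts were 74 against 67.8 in the control and 48 against 55.7 in the other library, so the sign of the latter depends on the thinning.

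EC-like control cells had Pdgfrb at 26.5 CPM (21.7 to 32.0), and those labelled knockout at 24.8 CPM (20.3 to 30.0). This was above the estimate for free RNA, whose highest value was 6.04 CPM in the control. It was 15.3% and 16.6% of the SMC-like level. On the same scale the contractile genes Acta2 and Myh11 stood at 0.81% and 0.36% and at 0.06% and 0.17%, and the mural cell marker Rgs5 had 7.85 and 13.2 CPM in EC-like against 72.9 and 66.3 CPM in SMC-like cells. Of the 8 pericyte markers 7 were detected in EC-like cells, with a summed level of 12.0 and 18.0 CPM and Vtn at 0. In EC-like cells with a Pdgfrb UMI the SMC markers summed to 223 and 115 CPM, against 142 and 134 CPM in those without, and the pericyte markers to 17.9 and 8.8 CPM, against 9.9 and 20.5. Fibroblast markers summed to 1129 and 990 CPM in the class. The part of mural and fibroblast RNA in the Pdgfrb value was not tested. At 1000 UMIs, 3.29% (1.81 to 5.45) and 2.30% (1.19 to 3.98) of EC-like cells had a Pdgfrb UMI, against 0.26% (0.09 to 0.56) and 0.16% (0.04 to 0.42) of macrophage-like cells. Unthinned, the EC-like shares were 17.9% and 14.8% and the macrophage-like shares 1.14% and 0.86%.

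Summed by role, ligands and receptors had different sources. SMC-like cells held 38.9% (37.7 to 40.2) of the ligand UMIs in the kept control cells, EC-like cells 26.5% (25.3 to 27.6) and fibroblast-like cells 24.6%. Fibroblast-like cells held 92.0% of the receptor UMIs, SMC-like cells 6.22% and EC-like cells 0.908%. In the labelled knockout library the ligand shares were 42.1%, 24.7% and 21.7%, in the same order, and the fibroblast-like receptor share 90.6%. Within EC-like control cells Pdgfd made up 66.0% of ligand UMIs, Pdgfb 15.7%, Pdgfa 13.7% and Pdgfc 4.64%. SMC-like cells had a similar Pdgfd share of 69.5%, with 15.7% Pdgfa, 14.4% Pdgfc and 0.496% Pdgfb. Receptor UMIs were 84.9% Pdgfrb in SMC-like control cells and 85.6% Pdgfra in fibroblast-like control cells. These sums add 3′ tags of several genes, so they are shares of UMIs and do not rank the genes by level. They give no amounts of protein.

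**Figure D2:**
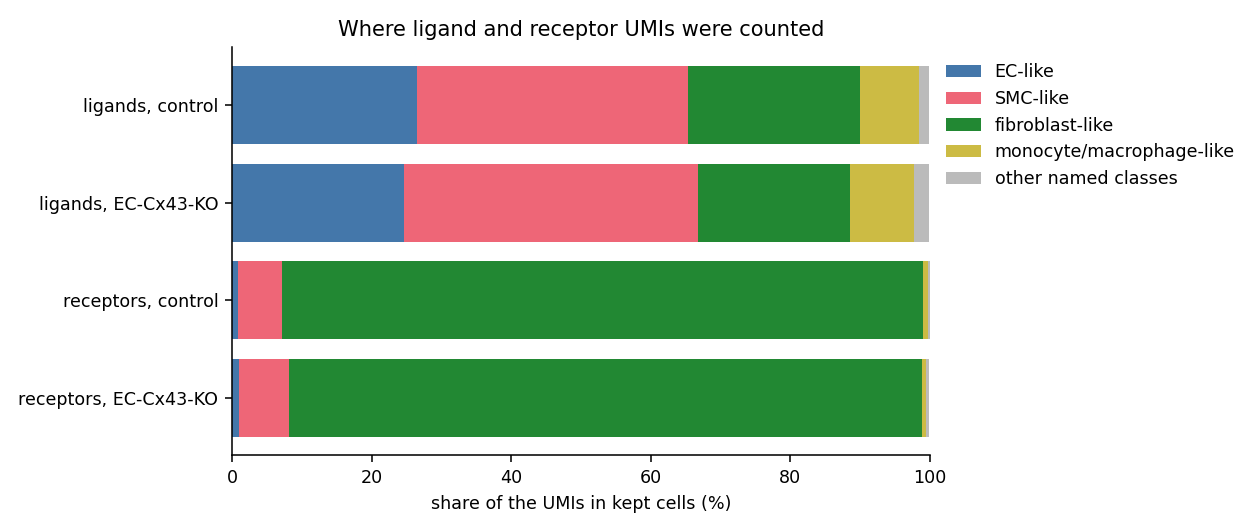
Share of the ligand UMIs (4 genes) and of the receptor UMIs (2 genes) held by each cell class, in percent of the UMIs of all kept cells, by library. Fibroblast-like cells take 92.0% and 90.6% of receptor UMIs, while ligand UMIs are spread over SMC-like, EC-like and fibroblast-like cells.

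The classes were not uniform in these genes. Clusters within a class were formed without the PDGF genes, and their differences are given as a description. Among EC-like cells, a small group led by Fabp4, Cd36 and Gpihbp1, genes of capillary endothelium, had Pdgfb at 350 CPM in the control library (14 UMIs in 7 cells) and 345 CPM in the labelled knockout library (98 UMIs in 49 cells). It was 1.46% of control and 8.45% of labelled knockout EC-like cells but held 5.91% and 35.5% of their Pdgfb UMIs. Pericyte markers were also highest there, at 925 and 222 CPM, and their part was not tested. A second group, led by Ano1 and Procr, had Pdgfb at 104 and 81.3 CPM, where the rest of the class had 44.7 and 62.1. The same cells were low in Pdgfrb, 9.74 and 7.26 CPM against 31.4 and 28.2 in the rest. Cells led by Fos and Mt1, an early response gene and a metallothionein, had Pdgfd at 86.6 and 93.9 CPM against 267 and 277. This group was shallow, with medians of 1472 and 1370 UMIs, where the group led by Gm26802 had 8018 and 7967. The part of depth was not tested.

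In SMC-like cells the ligand Pdgfd and the alpha receptor were unevenly divided. A group led by Timp1, Lum and Tnc, matrix-related genes, had 59 control and 94 labelled knockout cells and lower contractile markers, which summed to 8740 and 12448 CPM. Pdgfd there was 104 and 140 CPM, against 458 and 435 CPM in the other SMC-like cells. Pdgfra was 69.8 and 48.7 CPM, against 18.8 and 13.7. Pdgfrb, at 188 and 168 CPM, was no lower than in the class as a whole. The summed fibroblast markers of this group were 6381 and 5667 CPM, and over the other 4 groups they ran from 4443 to 6397 CPM. Their part in the Pdgfra value was not tested. The cells led by Hes1, a Notch target, had Pdgfa at 107 and 119 CPM and Pdgfc at 38.3 and 42.1 CPM. Those led by Pdzrn4 and Sost had the highest Pdgfd of the SMC-like groups, 595 and 623 CPM.

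Fibroblast-like clusters ranged widely in the same genes. The cluster led by Cpxm1 and Sfrp4 had Pdgfra at 1000 and 899 CPM, against 623 and 551 CPM in the others; Pdgfra was itself among the genes highest in that cluster. Its Pdgfd was 24.1 and 30.7 CPM. The cluster led by Tnfrsf11b and Inhba combined the highest Pdgfa, 27.9 and 31.4 CPM, with the lowest Pdgfd, from 25 and 23 UMIs (6.78 CPM for the control cells). The Sfrp2 and Comp cluster was highest in Pdgfrb, at 201 and 180 CPM against 110 and 86.5 in the rest. Cells led by Sdk1 and Bnc2 were highest in Pdgfd, at 165 and 211 CPM, and low in both receptors, with Pdgfra at 406 and 446 CPM. Pdgfd and Pdgfra UMIs fell in the same fibroblast-like cell 52 times in the control library and 75 times in the other, where the products of their shares give 68.7 and 88.5.

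Among macrophage-like cells Pdgfc was concentrated in the cluster led by Lyve1 and Cd163, markers of resident macrophages. It had 232 CPM in the control library (131 UMIs, 104 cells) and 167 CPM in the other (226 UMIs, 271 cells), against 17.5 and 12.4 CPM in the remaining macrophage-like cells. The cluster was 4.22% and 10.6% of the class and held 33.4% and 53.7% of its Pdgfc UMIs. Cells led by Fabp5, Arg1 and Spp1 had 38.1 CPM for the control cells, with a ratio of -0.61 between the libraries.

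**Figure D3:**
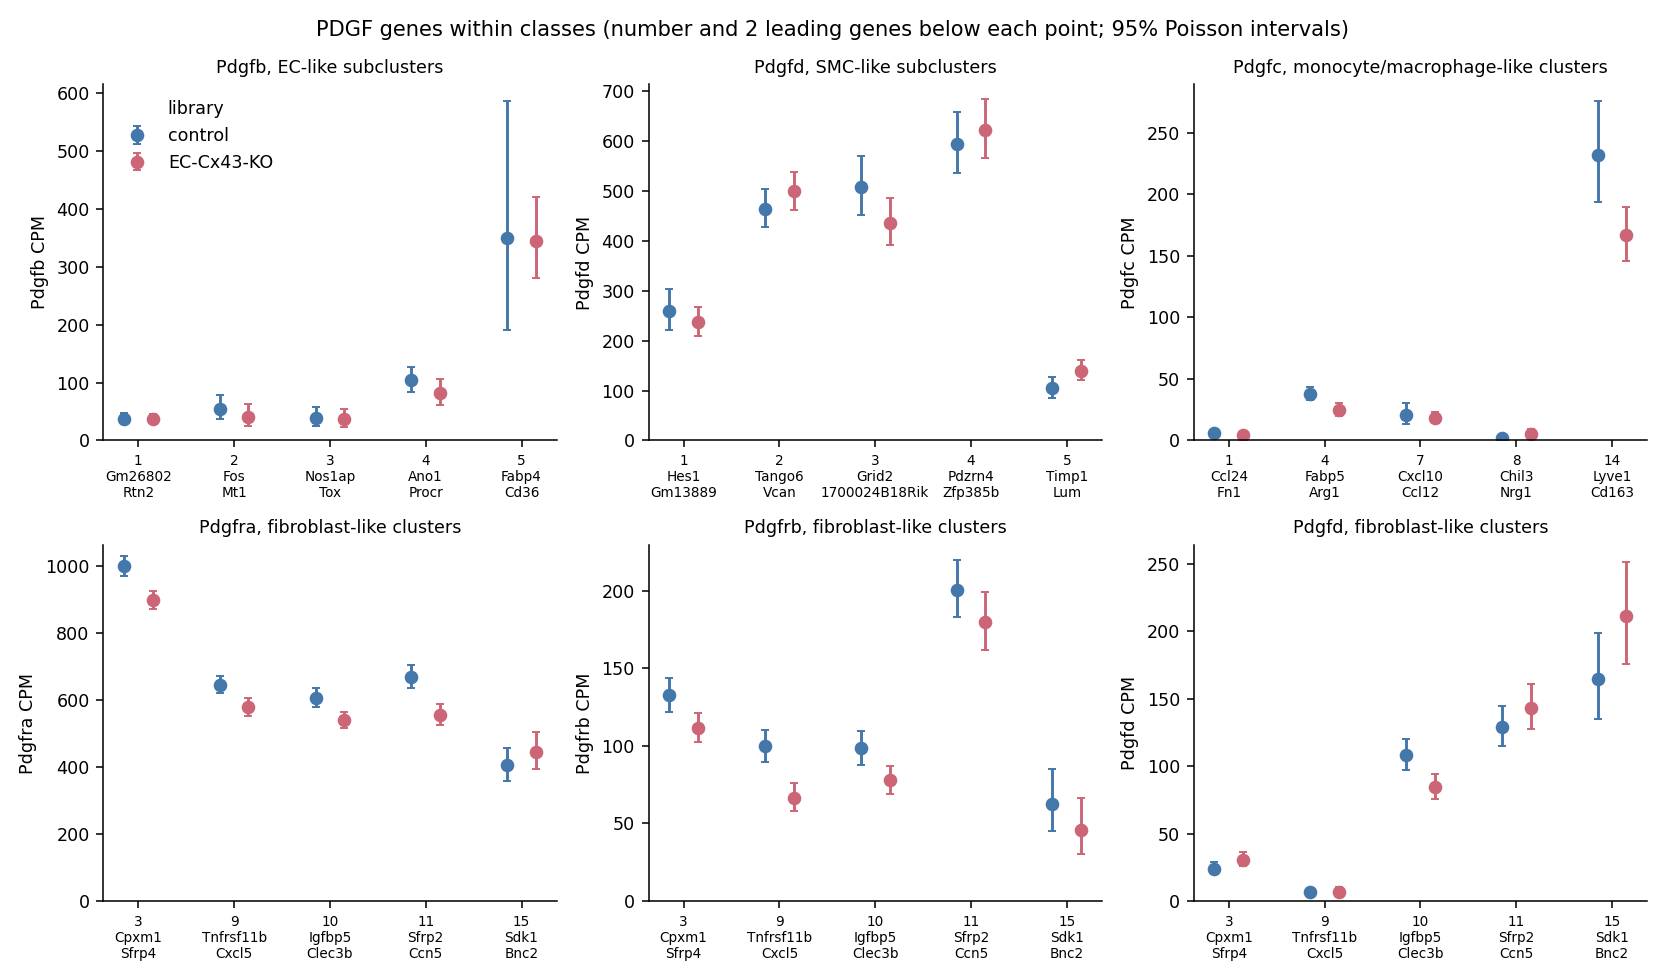
Level of selected PDGF genes in the clusters within a class, in CPM, with 95% Poisson intervals for counting error and 1 point per library; each cluster is marked by its number and 2 leading genes. Pdgfb peaks in the Fabp4 and Cd36 EC-like group in both libraries, near 350 CPM, and Pdgfc in the Lyve1 and Cd163 macrophage-like cluster.

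The comparison of the libraries asks what changed in the artery under the label of endothelial Cx43 loss; a ratio above 0 means a higher value in the library labelled EC-Cx43-KO. Of 48 pairs of gene and class, 27 had at least 20 UMIs, and their log2 ratios ran from -0.77 to 2.43. In EC-like cells, the labelled target of the deletion, none of the 6 genes passed 1.5-fold, where 10.9% of all genes did. Pdgfb, at 58.1 CPM against 65.2, had a log2 ratio of 0.17 (-0.09 to 0.42). Pdgfa had -0.16 (-0.45 to 0.13), Pdgfc -0.40 (-0.94 to 0.13), Pdgfd 0.07 (-0.06 to 0.19) and Pdgfrb -0.09 (-0.50 to 0.31). All 5 intervals include 0. Parts of the class gave other values. In the cluster led by Fabp4 and Adgrl4 Pdgfd was 0.77, from 16 and 105 UMIs, and Pdgfa -0.94, from 17 and 34 UMIs. That cluster was shallow, with a median of 1082 UMIs per cell against 7416 in the cluster led by Cytl1 and Pkhd1l1. Among cells with Y-linked and no Xist UMIs Pdgfa was -0.69 (-1.18 to -0.20) and Pdgfc 1.92 (0.17 to 4.32), the latter from 3 and 20 UMIs, while cells with Xist and no Y-linked UMI gave 0.03 and -0.46.

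The Pdgfb ratio differed with the EC-like cells that were counted, and the cause was not tested. The ratio was negative in each of the 5 EC-like groups taken singly, from -0.42 to -0.02, with 0 inside every interval, although the class as a whole gave 0.17. In the coarser division into 2 clusters the signs differed: -0.34 in the cluster led by Cytl1 and Pkhd1l1, with an interval below 0, and 0.83 in that led by Fabp4 and Adgrl4, from 16 and 109 UMIs, with an interval above 0. Without the Fabp4 and Cd36 group it was -0.29, from 55.2 to 45.1 CPM. Among cells with Xist and no Y-linked UMI it was -0.08, and among cells with Y-linked and no Xist UMIs 0.65 (0.12 to 1.20).

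In SMC-like cells also none of the 6 genes passed 1.5-fold, where 9.86% of all genes did. Pdgfrb was lower in the labelled knockout library, at 150 CPM against 173, a log2 ratio of -0.21 (-0.36 to -0.06) beside a median of -0.03 for all genes of the class. It was below 0 in 5 of 5 SMC-like groups, from -0.41 to -0.16, with 2 intervals below 0. Pdgfc had -0.26 (-0.49 to -0.04) and Pdgfra -0.46 (-0.84 to -0.09), the latter from 126 and 116 UMIs. Among cells with Xist and no Y-linked UMI Pdgfra was even, at 28.3 CPM in both libraries (interval -0.49 to 0.48), and among cells with Y-linked UMIs and no Xist it was -1.04 (-1.73 to -0.35). Over the 4 SMC-like groups that could be measured it ran from -1.60 to 0.37. Pdgfc was -0.34 in the first kind of cell and -0.08 in the second. Pdgfa (0.15, -0.05 to 0.36) and Pdgfd (-0.05, -0.15 to 0.05) had intervals that include 0.

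Fibroblast-like cells had both receptors lower in the labelled knockout library, by less than 1.5-fold. Pdgfrb went from 124 to 99.7 CPM, a log2 ratio of -0.32 (-0.42 to -0.22), and Pdgfra from 741 to 667 CPM, -0.15 (-0.19 to -0.11), beside a median of -0.09 for all genes of the class. The Pdgfrb ratio was below 0 in 5 of 5 fibroblast-like clusters, from -0.58 in the Tnfrsf11b and Inhba cluster to -0.16, with 3 intervals below 0. That of Pdgfra was below 0 in 4 of 5. Under a scaling to the median gene the Pdgfra ratio was -0.07.

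Only 1 of the 6 genes, Pdgfb, passed 1.5-fold in fibroblast-like cells, where 12% of all genes did: 4 UMIs among control cells against 22, of which 16 were in a single cell. Without the cell richest in Pdgfb of each library its ratio was 0.97 (-1.26 to 3.60), down from 2.43. Pdgfa (0.00, -0.27 to 0.27) and Pdgfd (0.02, -0.11 to 0.16) were close to even in these cells. Pdgfc had -0.27 (-0.52 to -0.01). By kind of cell it was 0.16 (-0.22 to 0.55) with Xist and no Y-linked UMI, and -0.82 (-1.20 to -0.44) with Y-linked UMIs and no Xist.

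**Figure D4:**
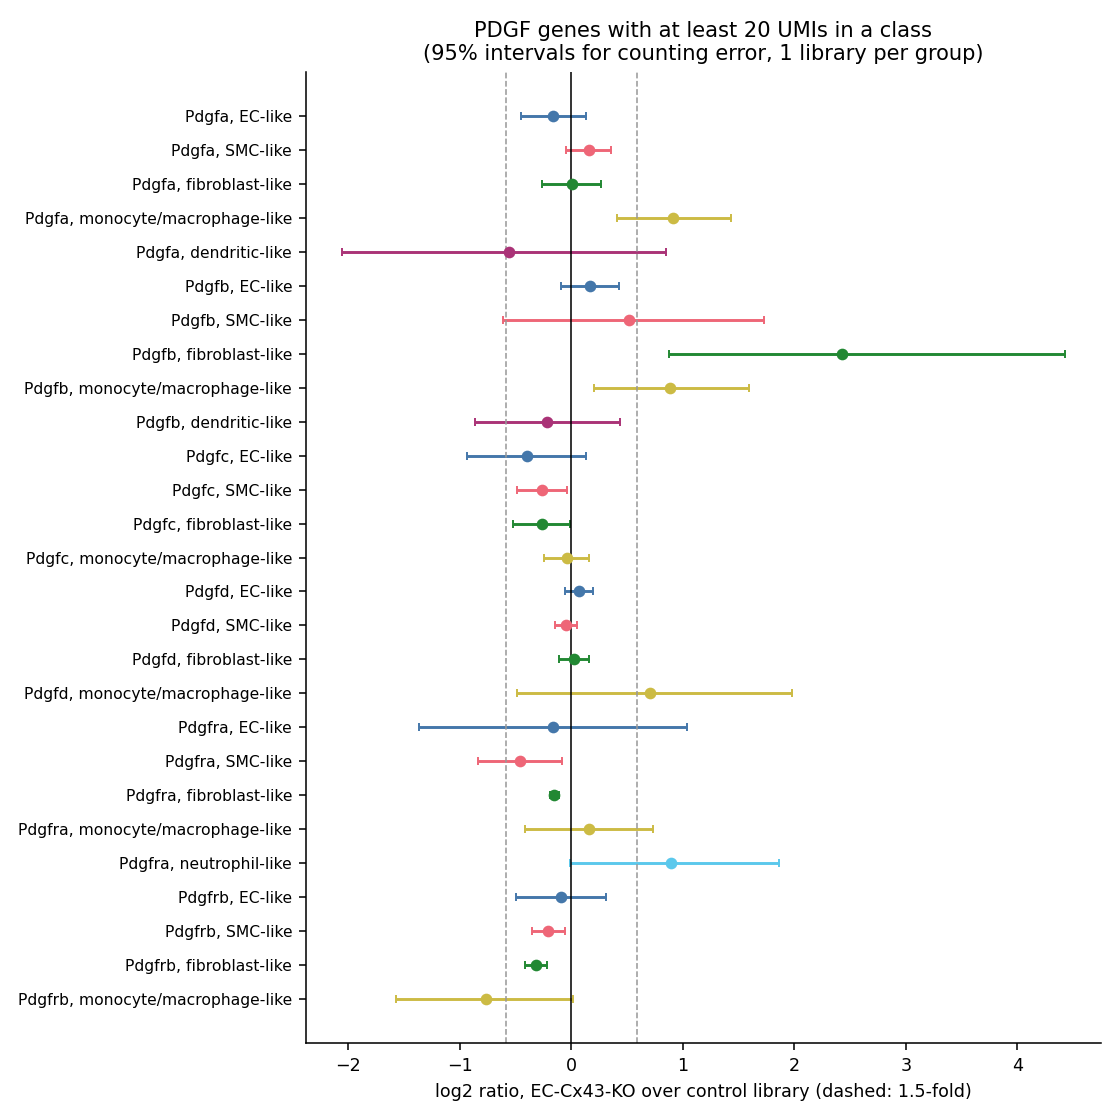
Log2 ratio of the EC-Cx43-KO-labelled over the control library for every PDGF gene and class with at least 20 UMIs, with 95% intervals for counting error; dashed lines mark 1.5-fold. Most points lie inside the dashed lines, and the receptors lie below 0 in SMC-like and fibroblast-like cells.

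In macrophage-like cells 4 of the 6 genes passed 1.5-fold, where 12.6% of all genes did, all 4 at low levels. Pdgfa had 50 control UMIs (3.23 CPM) against 104 under the knockout label (6.08 CPM), a log2 ratio of 0.91 (0.41 to 1.43). It was above 0 in all 3 macrophage-like clusters that could be measured. In cells with Xist it was 0.96 (0.39 to 1.56), from 40 and 73 UMIs. In cells with Y-linked UMIs it was 0.85 (-0.45 to 2.34), from 7 and 20 UMIs. Both class levels of Pdgfa exceed the free RNA estimate of 0.93 and 0.92 CPM. Platelets carry PDGF-A protein, and the summed platelet markers of this class were 5032 and 5626 CPM. This sum was not split by marker, and Gp1ba was not detected in the control cells, so it does not measure platelet RNA. The part of platelets in the Pdgfa value was not tested. Pdgfb had 28 and 57 UMIs, a ratio of 0.88 (0.21 to 1.59). In cells with Xist it was 1.30 (0.42 to 2.25), from 16 and 37 UMIs. In cells with Y-linked UMIs it was -0.92 (-2.97 to 1.05), from 6 and 5 UMIs. The ratios of Pdgfd, 0.70, and Pdgfrb, -0.77, have intervals that include 0 and come from levels at or under the free RNA estimate.

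Pdgfc, the ligand that macrophage-like cells do carry, had a class ratio of -0.04 (-0.24 to 0.16), with different values inside the class. In the Lyve1 and Cd163 cluster it was -0.48 (-0.80 to -0.16), and in the remaining cells -0.50. The larger share of that cluster in the labelled knockout library goes with the even class value. The ratio was below 0 in 4 of 5 macrophage-like clusters.

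In neutrophil-like cells Pdgfra had 16 control UMIs against 32, 6.74 and 12.5 CPM and a ratio of 0.90 (-0.01 to 1.86), where 19% of all genes passed 1.5-fold. The control value is under the median free RNA estimate of 11.8 CPM; the other (8.57 to 17.7) is above its median of 8.45 and under its highest estimate of 18.8 CPM. The estimate exceeds all the Pdgfra counted in EC-like and macrophage-like cells, so it can be too high here as well. The part of free RNA was not tested further. In dendritic-like cells Pdgfa (-0.56) and Pdgfb (-0.22) stayed within 1.5-fold, which 20% of all genes passed.

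Because the pools differed in sex-linked transcripts, the ratios were also taken within cells of 1 kind. In fibroblast-like cells Pdgfrb was -0.33 (-0.48 to -0.17) among cells with Xist and no Y-linked UMI and -0.31 (-0.47 to -0.14) among cells with Y-linked UMIs and no Xist. Pdgfra was -0.19 (-0.25 to -0.14) in the first, from 777 to 680 CPM, and -0.01 (-0.07 to 0.06) in the second, from 674 to 672 CPM. Pdgfrb in SMC-like cells was -0.33 (-0.53 to -0.13) and -0.11 (-0.38 to 0.16). Pdgfa in SMC-like cells was 0.37 (0.11 to 0.63) in the first and -0.10 in the second. Of the 2 receptors, Pdgfrb in fibroblast-like cells kept the same size of ratio in both.

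**Figure D5:**
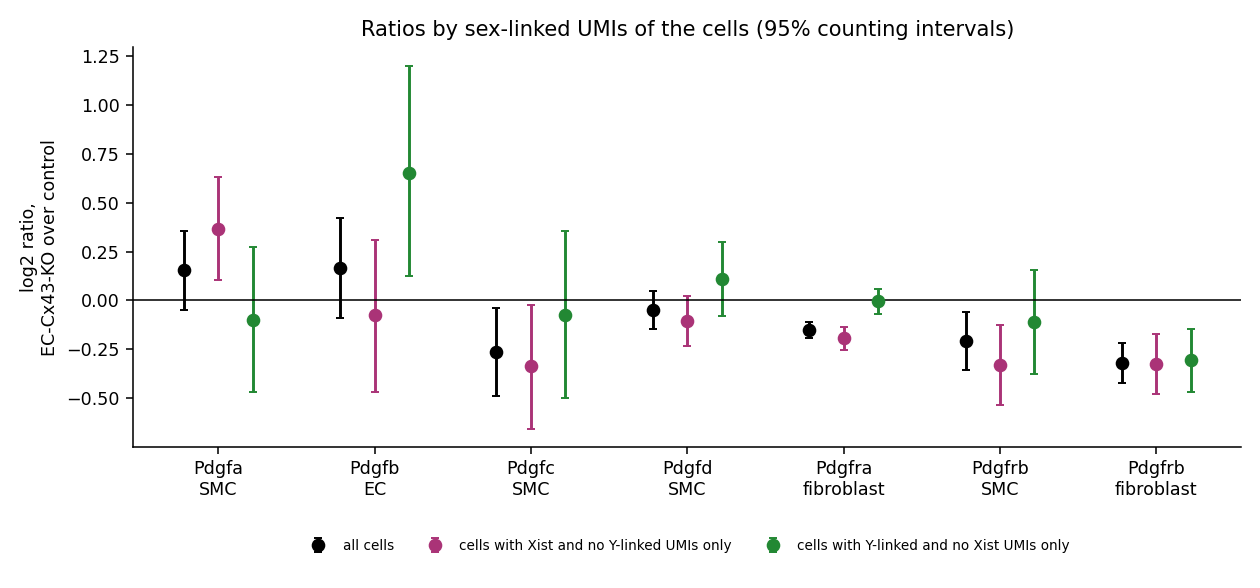
Log2 ratio of the EC-Cx43-KO-labelled over the control library in all cells of a class, in cells with Xist and no Y-linked UMIs, and in cells with Y-linked and no Xist UMIs, with 95% intervals for counting error. Pdgfrb in fibroblast-like cells is near -0.3 in all 3, while Pdgfra in fibroblast-like cells is near 0 in the last.

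Genes around the PDGF system were counted from 5 lists. Among genes that cleave or hold the ligands, 9 of 12 had enough UMIs in EC-like cells: none was higher past 1.5-fold and 2 were lower, where 5.71% of all genes were. Among the latter was Plat, the tissue plasminogen activator, which can activate PDGF-C, at 353 against 213 CPM (-0.73). The median of the list was 0.06, beside -0.05 for all genes. In SMC-like and fibroblast-like cells 10 of these genes were measured and none passed 1.5-fold in either direction, with medians of -0.16 and -0.17 beside -0.03 and -0.09.

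Of the receptor partners, 1 of 9 passed in EC-like cells, Nrp2, a neuropilin co-receptor, with 16 control UMIs against 93 (2.49). Among all EC-like genes 5.19% were higher. In SMC-like cells 1 of 10 passed, with a higher value: S1pr1, a sphingosine phosphate receptor, with 6 and 22 UMIs (1.53). The shares of all genes past 1.5-fold were 5.31% higher and 4.55% lower in SMC-like cells, and 5.42% higher and 6.56% lower in fibroblast-like cells. In fibroblast-like cells Nrp2 was lower (-0.70), the only 1 of 10. The list medians were -0.10, 0.03 and 0.00.

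Of the 33 signalling genes downstream of the receptors, 1 passed 1.5-fold in EC-like, 2 in SMC-like and 3 in fibroblast-like cells, where 10.9%, 9.86% and 12% of all genes did, with list medians of -0.13 in EC-like, -0.07 in SMC-like and -0.15 in fibroblast-like cells. Those with lower values were Pik3r2, a subunit of PI 3-kinase, in EC-like and SMC-like cells (-0.61 in the latter), and Pik3cb (-0.80) and the adaptor Nck2 (-0.70) in fibroblast-like cells. Among genes that restrain the receptors, Spry1, a Sprouty inhibitor of receptor tyrosine kinase signalling, had 9 UMIs in EC-like control cells against 52 (2.48), and a lower value in SMC-like cells (-0.96). It was the only gene of that list past 1.5-fold in either class, of 19 and 18 measured, and none of 19 passed in fibroblast-like cells, beside the same shares of all genes. The part of the unevenly represented Fabp4 and Cd36 group in the EC-like Spry1 value was not tested. The medians of the list were -0.00, -0.04 and -0.10.

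None of the 16 early response genes that growth factors induce, such as Fos and Egr1, passed 1.5-fold in EC-like, SMC-like or fibroblast-like cells. The medians were 0.12, -0.05 and -0.05. The shares of all genes that did were 10.9%, 9.86% and 12%. The largest differences, among those with at least 50 UMIs, were Egr3 in EC-like (-0.41), Klf10 in SMC-like (-0.49) and Egr2 in fibroblast-like cells (0.38).

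Over 19 clusters in each library, 38 points that share libraries and depth, the levels of the family members were compared with those of 12737 other genes on the log2(CPM + 1) scale. The genes most like Pdgfra were Dpt (r = 0.97), a dermatopontin of the fibroblast matrix, Gdf10, Medag, Gpr153 and Bdh2. Those most like Pdgfrb were Aebp1 (0.96), Lox, a collagen cross-linking enzyme, Fkbp10, Dsel and Nbl1. For Pdgfb they were Kcnq1 (0.85), Zfp366, the endothelial claudin Cldn5, the Notch ligand Dll4, and Klhl4. Pdgfd was most like Sntg2 (0.96), Msrb3, Galnt15, Pde3a and Kank1, and Pdgfa like Mras (0.90), Aqp1, Cyb5r3, Cd151 and Tmem132a. Pdgfc had the weakest match, with Adcy9 (0.81), Rusc2, Pmp22, Itsn1 and Nacc2. The order of close matches depends on the measure: with a pseudocount of 10, 1 to 3 of the 5 were shared, and with rank correlation likewise 1 to 3.

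Between members, Pdgfra and Pdgfrb had r = 0.83 over the same points and Pdgfd and Pdgfrb 0.82. Pdgfb had the lowest values, -0.33 with Pdgfra, -0.08 with Pdgfc and -0.07 with Pdgfrb. In SMC-like cells thinned to 2000 UMIs, Pdgfd and its receptor Pdgfrb shared a cell 53 times in 372 control cells, where the product of their shares gives 55.7, and 49 times in 505 labelled knockout cells, with 55.6.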

How the data were processed

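The authors deposited raw UMI counts per gene and barcode for 2 libraries, made with Cell Ranger 8.0.1, per the file headers; the submitters' processing notes also name STAR and the mm10 build. The library totals were 48862850 UMIs (control) and 54392831 (EC-Cx43-KO). Cells needed 300 genes or more and no more than 15% of UMIs from mitochondrial genes, and 363 and 476 barcodes with many simulated doublets as neighbours were removed. Cells were clustered on 2000 variable genes without the 6 PDGF genes and Gja1 (30 principal components, 20 neighbours, Leiden resolution 1; 0.6 within EC-like and SMC-like cells). A cluster was named from fixed marker lists by at least 3 markers detected in 10% of its cells, with names checked against its 10 leading genes. A difference from cell types the study used may come from these rebuilt names.

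For each class of a library UMIs were summed and divided by the sum over all genes (CPM), with exact 95% Poisson intervals. Ratios carry exact conditional binomial intervals and a floor of 3 UMIs; genes with at least 20 UMIs in a class count as measured and 1.5-fold marks a difference. No p-value was computed, since each condition is 1 library and cells are not replicates. The free RNA estimate uses marker lists counted in classes taken to lack them (median 4.74% and 4.01% of the library's profile). It was not checked that each class lacks every marker, and expression by the class itself would raise the estimate. In macrophage-like control cells the fibroblast list summed to 404 CPM, of which Dcn gave 25.7 CPM. Shares of cells used cells thinned to 1000 UMIs, or 2000 for pairs of genes; shares carry exact Clopper-Pearson 95% intervals. The ratios and intervals were run on Poisson counts simulated from control class sums with known folds. Such counts hold no spread between cells or animals, so the run checks the calculation and not that spread.

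All 6 genes were described in every class with at least 50 cells per library; for each, the 5 genes with the highest Pearson r over clusters were named, and for each list the 4 largest ratios among genes with at least 50 UMIs. Some genes of the lists are not reported here by name. S1pr1, and Pik3r2 in EC-like cells, were named after their values were seen. Genes and lists were chosen with earlier results of these data known, and the rule for naming clusters, the groups within SMC-like cells and the 6 alternatives that leave out cells or clusters were chosen after seeing the data. Promoter windows are RefSeq's; 4 of the 6 genes had an entry. Clustering ran with leidenalg 0.10.2, igraph 0.11.9 and scikit-learn 1.9.0, intervals with SciPy 1.17.1, tables with pandas 2.3.3 and NumPy 2.4.6, and plots with matplotlib 3.10.9, under Python 3.11.15.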

Additional observations from a re-analysis of the deposited data

How the results depend on the processing

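The ratios between libraries kept their sign in 303 of 336 alternatives and lay within the counting interval in 304. Pdgfrb in fibroblast-like cells ran from -0.37 to -0.23, in SMC-like cells from -0.33 to -0.11, and Pdgfa in macrophage-like cells from 0.75 to 1.18. Of the ratios past 1.5-fold, the sign turned with free RNA subtracted for Pdgfd in macrophage-like cells (-0.14). In cells with Y-linked and no Xist UMIs it turned for Pdgfb in macrophage-like cells (-0.92, from 6 and 5 UMIs). It also turned there for Pdgfb in fibroblast-like cells (-0.53, with both libraries under the floor of 3 UMIs). The last was Pdgfra in neutrophil-like cells with Y-linked and no Xist UMIs (-0.027, with the control library at that floor). Inside 1.5-fold, Pdgfc turned to 1.92 in EC-like cells with Y-linked UMIs and to 0.16 in fibroblast-like cells with Xist; further turns are among the values that follow. Pdgfb in EC-like cells became 0.66 as a mean of single-cell CPM, 0.65 in cells with Y-linked UMIs and -0.29 without the Fabp4 and Cd36 group. Pdgfra in fibroblast-like cells became -0.066 with median-of-ratios scaling, -0.19 in cells with Xist and -0.0051 in cells with Y-linked UMIs. In SMC-like cells Pdgfa became 0.37 in cells with Xist and -0.10 in cells with Y-linked UMIs, and Pdgfd 0.11 in the latter. Pdgfc in macrophage-like cells became 0.35 with at least 500 genes per cell, 0.44 with doublets kept and 0.39 at resolution 2. The class did not hold the same cells there. In that order 1621, 1846 and 1825 control cells were named macrophage-like, and 862, 935 and 781 control cells were left unnamed. The main setting named 6312 of 6376 control cells. Without the Lyve1 and Cd163 cluster the Pdgfc ratio was -0.50. The cause of these changes was not tested.

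The log2 folds of a class over other cells stayed above 0 in all 98 alternatives, 66 of them within the counting interval. Each gene's class had been picked as its highest in these same data, so the sign was nearly set beforehand and only the sizes inform. With at least 500 genes per cell the control folds were 2.49 for Pdgfa, 2.23 for Pdgfc, 2.78 for Pdgfd (2.74 in the other library) and 1.61 for Pdgfrb. With doublets kept they were 2.45 and 2.54 for Pdgfa, 2.27 for Pdgfc in the control, 2.75 in both libraries for Pdgfd, 6.11 and 6.06 for Pdgfra, and 1.62 for Pdgfrb in the control. At resolution 0.5 Pdgfa was 2.96 in the labelled knockout and Pdgfd 2.86 in the control library; at resolution 2 Pdgfc was 2.25 and Pdgfrb 1.63 in the control, and Pdgfd 2.77 and 2.78. As means of single-cell CPM the folds were 4.08 and 4.59 for Pdgfb, 2.12 for Pdgfc in the labelled knockout library, 3.41 and 3.26 for Pdgfd, 6.27 and 6.01 for Pdgfra, and 2.18 and 2.33 for Pdgfrb. With free RNA subtracted Pdgfd was 3.06 in the control, and Pdgfra 12.8 in both libraries, with other cells at the floor. Without the Fabp4 and Cd36 group Pdgfb was 3.72 in the labelled knockout library. Unnamed cells are left out of the other cells, and their number differed between the settings. The cause of these shifts was not tested. Leaving out the 12 shared barcodes among kept cells moved no ratio or fold beyond its counting interval.

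With 1 library per condition, differences between animals, pools and conditions cannot be told apart. Depth limits Pdgfb outside EC-like cells and Pdgfa in leukocytes, where few UMIs stand behind a value. No paired analysis was possible because each group has a single library.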

Other observations

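Small groups outside the 8 compared classes also held Pdgfa. The 26 glial-like cells of the labelled knockout library had 265 CPM (190 to 361) from 40 UMIs, above its SMC-like level of 94.1 CPM, while the control library had only 1 such cell and gives no comparison. Platelet-like cells had 146 and 98.5 CPM from 6 and 5 UMIs.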
